A study of Danio rerio with 8 samples.

Results

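Wnt ligands are secreted, lipid-bound proteins, and frizzled genes encode the membrane receptors that hold them. Together with a co-receptor of the LRP family a frizzled can stabilise beta-catenin, which then acts with TCF and LEF proteins on transcription, and through other partners frizzleds orient cells within a tissue. Wnts bind heparan sulfate, and in zebrafish they take part in brain vessel growth and in the shaping of pharyngeal cartilage. The genes described here are the 40 rows of a table of 32520 genes whose name begins with wnt or fzd and a digit. They are 14 frizzled receptors and 26 Wnt rows with 25 names, since wnt8a is listed under 2 identifiers.

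RNA-seq counts came from GFP-positive cells sorted from larvae of the line Tg(fli1a:eGFP)y1 at 96 hours post fertilization (hpf), each library from 60 to 80 pooled larvae. All larvae had genotype wt and all were injected at the 1-cell stage, 4 libraries with a standard control morpholino (control) and 4 with a morpholino against hpse2 exon-intron junction 10 (labelled Hpa2 loss-of-function, here LOF-labelled). A morpholino is an antisense oligomer, and hpse2 encodes heparanase 2, a heparan sulfate-binding relative of heparanase. A group has biological replicates 1 and 2, each sequenced as 2 libraries, which gives libraries 1_1, 1_2, 2_1 and 2_2, and values below follow that order. The labels leave unsaid whether both such libraries came from the same pool of larvae, so p-values may in part measure technical spread.

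Libraries held 5048839 to 11344918 counts. The fli1a promoter marks endothelium and also pharyngeal neural crest derivatives. Fli1a, whose promoter drives the reporter used for the sort, is among the endothelial markers and enters their sum, so its level alone does not show endothelium. All 26 endothelial marker genes had counts, with fli1a at 481 ± 45.8 CPM and flt4 at 94.8 ± 17.5 CPM in the controls (CPM, counts per 1000000 of the scaled library, mean ± SD, n = 4). Their summed level was 984 to 1363 CPM in the controls against 974 to 1364 CPM under the LOF label, beside 30740 to 37600 and 19220 to 26360 CPM for 18 cartilage genes and 38840 to 45040 and 43600 to 53790 CPM for 18 fibroblast genes. The most abundant marker of each other list was col2a1a for cartilage, col1a2 for fibroblasts, pdgfrb for mural cells, mpx for neutrophils and macrophages, slc4a1a for erythrocytes, actc1b for skeletal muscle, rho for photoreceptors, tubb5 for neurons and anxa1a for epidermis, with col2a1b, col1a1b, foxc1b, npsn, hbbe1.1, tpma, opn1mw1, atp1a3a and krt91 second. Some markers were listed at 0 in all 8 libraries, namely krt5, cldni and epcam of epidermis, hbba1, hbba2 and alas2 of erythrocytes, snorc of cartilage and mylpfa of muscle. The cells are labelled endothelium, and the values below are those of a sort that also held other markers. In bulk RNA, fewer cells of a type and less RNA per cell cannot be told apart. The target gene was not lower under the label, with hpse2 at 20.5 to 33.1 CPM in the controls against 47.3 to 83.1 CPM under the LOF label. Blocking a splice site can alter a transcript without lowering its gene count, so its level cannot serve as a check of the knockdown. The first principal component, with 40.3% of the variance, divided the libraries across the groups. The first set joins biological replicate 1 of the controls to biological replicate 2 under the LOF label, and the second set holds the other 4 libraries. Differences within each set are given where they bear on a result.

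A gene was taken as expressed where it reached 1 CPM, which is 4.77 to 11.6 counts, in all 8 libraries. By that measure 23 of the 40 rows were expressed, 10 receptors and 13 ligands, against 43.8% of all genes in the table. Another 5 reached it in some libraries and 12 in none. By group, 11 receptors and 13 ligands reached 1 CPM in all 4 controls, and 10 receptors and 13 ligands in all 4 LOF-labelled libraries. Levels of different genes are compared here per length, as TPM (counts per length, scaled to 1000000 in each library) from the deposited gene lengths, which ranged from 1098 to 6668 bases for these genes. Reads outside an annotated gene model are not in its count, so levels per length depend on the annotation.

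Frizzled transcripts came mainly from fzd2 and fzd7b, members of the FZD1/2/7 subfamily. Fzd2, whose human relative is a receptor for WNT5A, had 532, 416.5, 724 and 720.4 TPM in the controls against 781, 837, 546 and 525 TPM under the LOF label. Fzd7b, whose relatives act in cell movements of the early embryo, had 497, 423, 584 and 592 TPM in the controls against 645, 684, 479.7 and 478 TPM under the LOF label. Both genes were lowest in control 1_2 and highest in LOF-labelled 1_2, and the groups overlapped. Fzd2 exceeded fzd7b in 7 of 8 libraries, so the order of these neighbours was not the same throughout. Together they made up 76.9% to 78.7% of the summed receptor level in every library.

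**Figure D1:**
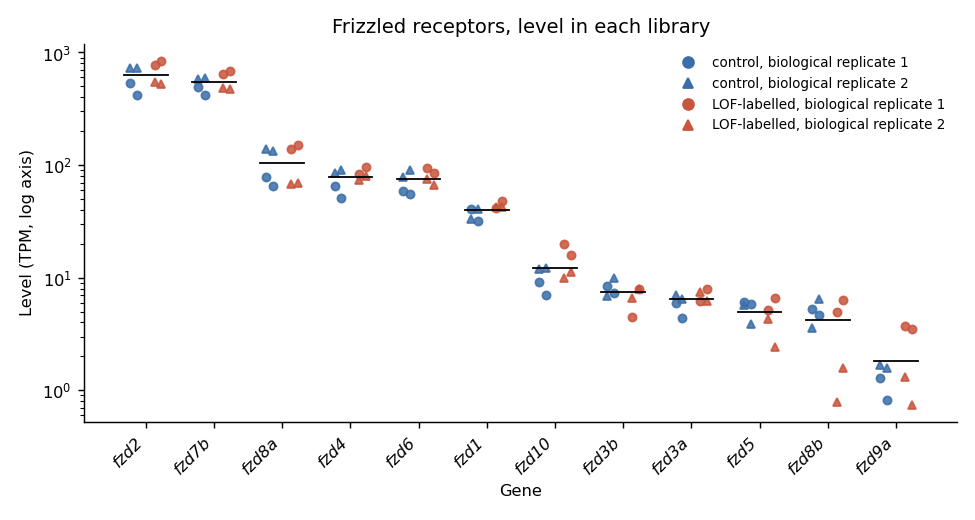
Level of the 12 frizzled genes that reached 1 CPM in at least 1 library, in TPM on a log axis. Points are single libraries, bars the mean of 8 libraries. Fzd2 and fzd7b lie between 416.5 and 837 TPM, above every other receptor in every library.

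A middle tier followed at 40.1 to 105 TPM (means of 8 libraries). It held fzd8a at 65.2 to 151 TPM, fzd4 at 50.9 to 95.8 TPM, fzd6 at 55.6 to 93.9 TPM and fzd1 at 31.8 to 47.99 TPM. In mammals FZD4 is the receptor for Norrin in retinal vessels, and FZD6 acts in planar polarity. Fzd8a exceeded fzd4 in 6 libraries and fzd4 exceeded fzd6 in 5, so these 3 were not separated, whereas fzd7b exceeded fzd8a, fzd6 exceeded fzd1, and fzd1 exceeded fzd10 in all 8 libraries. In the lowest tier of expressed receptors were fzd10 (mean 12.1 TPM), fzd3b (7.46), fzd3a (6.48) and fzd5 (4.97 TPM), and no neighbours among them kept 1 order in all libraries. Fzd3a guides migrating neurons and growing axons, and fzd5 acts in the zebrafish eye field.

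Summed by subfamily, FZD1/2/7 held 79.3% to 81.8% of the receptor level, FZD5/8 5.54% to 8.78%, FZD3/6 5.19% to 6.74%, FZD4 4.52% to 6.15% and FZD9/10 0.726% to 1.3%. The FZD1/2/7 share was 80.5% ± 1.17 in the controls and 80.8% ± 0.445 in the LOF-labelled libraries (SD, n = 4). Fzd7a and fzd9b, described below, entered these sums as listed. The summed receptor level was 1442 ± 306 TPM in the controls and 1595 ± 342 TPM under the LOF label (mean ± SD, n = 4). The groups differed by less than their spread, which includes the difference between the library sets. By library set the level was 1073 to 1315 TPM in the first and 1679 to 1949 TPM in the second. Within the first set the controls were at 1308 and 1073 TPM against 1315 and 1291 TPM under the LOF label. Within the second they were at 1679 and 1707 TPM against 1827 and 1949 TPM.

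The receptors below 1 CPM in some libraries were fzd8b and fzd9a. Fzd8b was at 3.37 to 6.01 CPM in the controls, at 4.79 and 5.91 CPM in LOF-labelled 1_1 and 1_2, and at 0.793 and 1.61 CPM in LOF-labelled 2_1 and 2_2 (6 and 12 counts). Fzd9a was at 0.629 to 1.12 CPM in the controls, at 2.52 and 2.28 CPM in LOF-labelled 1_1 and 1_2, and at 0.925 and 0.537 CPM in LOF-labelled 2_1 and 2_2. In both genes the 2 biological replicates of the LOF-labelled group did not overlap.

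Fzd7a and fzd9b were listed with 1 and 0 counts over 8 libraries, and these values alone do not show absence. The 3 protein-coding genes that follow fzd7a in the table, als2a, mpp4a and tmem237a, were also listed at 0. Als2a, the nearest of them, starts 276327 bases beyond the start of fzd7a. Carf, the nearest protein-coding gene before fzd7a, had 3145 counts, and abi2a, beyond tmem237a, had 900. The 5 protein-coding genes before fzd9b, ccnl1a, selenot1b, tsen34, bcl7bb and baz1b, had 2, 0, 0, 0 and 3 counts, whereas rnf7, the second after it, had 1760. Tsen34 encodes a subunit of the tRNA splicing enzyme and baz1b a chromatin remodelling factor. Among the 5 protein-coding genes before fzd5, which had 243 counts, dbr1 and armc8 were also listed at 0. In all, 18.3% of the 25432 protein-coding genes had 3 counts or fewer. The cause of these runs was not tested. Fzd7a lies on chromosome 9, 13352308 to 13355071, and fzd9b on chromosome 18, 41648812 to 41650648 (GRCz11), and the tally of rows below 1 CPM holds both as listed.

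**Figure D2:**
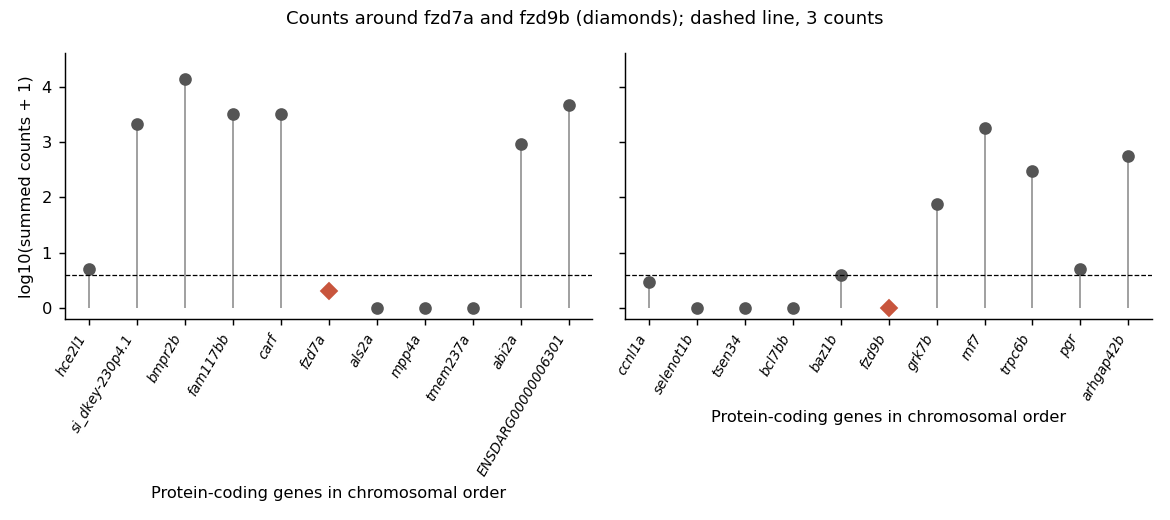
Counts summed over 8 libraries, as log10(counts + 1), for fzd7a and fzd9b (diamonds) and the 5 protein-coding genes on each side in chromosomal order. Fzd7a with 1 count is followed by 3 genes at 0, and the 5 genes before fzd9b have 0 to 3 counts.

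Among the ligands wnt11 was the most abundant and wnt5b came second, both of them ligands best known for beta-catenin-independent signalling. Wnt11, the gene formerly named wnt11r in zebrafish, had 689, 514, 696 and 786 TPM in the controls against 939, 954, 655 and 641 TPM under the LOF label. Wnt5b, the gene of the pipetail mutant with its short jaw cartilage elements, had 229, 189, 254 and 251 TPM in the controls against 263, 284, 241 and 236 TPM under the LOF label. Wnt11 exceeded wnt5b, and wnt5b exceeded wnt9b, in all 8 libraries. Together wnt11 and wnt5b made up 79.6% to 87.01% of the summed ligand level. That sum was 1089 ± 203 TPM in the controls and 1262 ± 254 TPM under the LOF label (mean ± SD, n = 4), with 821 to 1055 TPM in the first library set and 1192 to 1498 TPM in the second. Within the first set the controls were at 1055 and 821 TPM against 1051 and 1035 TPM under the LOF label. Within the second they were at 1192 and 1289 TPM against 1465 and 1498 TPM.

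**Figure D3:**
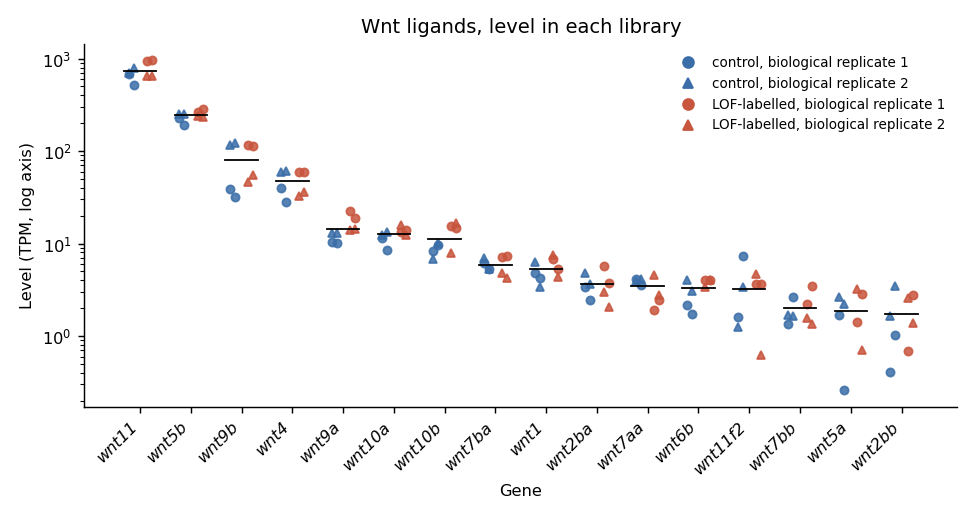
Level of the 16 Wnt genes that reached 1 CPM in at least 1 library, in TPM on a log axis, with points for single libraries and bars for the mean of 8. Wnt11 and wnt5b lie highest, and the points of wnt9b and wnt4 fall into a lower and an upper cluster of 4 libraries each.

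Wnt9b and wnt4 came next. Wnt9b had 38.6, 31.7, 116 and 122 TPM in the controls against 115, 114, 46.2 and 55.7 TPM under the LOF label. Wnt4, at 28.3 to 61.0 TPM, was below wnt9b in 7 of 8 libraries and above wnt9a in all 8. Wnt9a, wnt10a and wnt10b had means of 14.5, 12.6 and 11.2 TPM and did not keep 1 order among themselves. The remaining expressed ligands were wnt7ba (5.90 TPM), wnt1 (5.35), wnt2ba (3.61), wnt7aa (3.43), wnt6b (3.3) and wnt7bb (1.99 TPM), and no neighbours in this order were separated in all 8 libraries. Wnt7aa is the ligand that zebrafish brain vessels read through the co-receptors Adgra2 and Reck, which were at 291 ± 41.9 and 352 ± 26.3 CPM in the controls against 5.39 ± 0.385 CPM for wnt7aa (mean ± SD, n = 4, not divided by length). Over receptors and ligands, 6 of 21 neighbouring pairs kept their order in all 8 libraries.

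Wnt11f2 (the silberblick gene, a ligand of gastrulation movements), wnt5a and wnt2bb, a ligand of liver specification, reached 1 CPM in some libraries. Wnt11f2 ranged from 0.537 CPM in LOF-labelled 2_2 to 6.71 CPM in control 1_2, with 4 to 32 counts per library. LOF-labelled 2_1 and 2_2, from 1 biological replicate, had 30 and 4 of these counts. Wnt5a ranged from 0.21 to 2.38 CPM and wnt2bb from 0.239 to 1.80 CPM. The other 10 Wnt rows stayed below 1 CPM in every library. Summed over 8 libraries, wnt8b had 32 counts, wnt16 27, wnt2 25, wnt4b 16, wnt7ab 15, wnt3 10, wnt6a 8 and wnt3a 2. Both wnt8a rows had 0 of 65139156 counts, which allows up to 0.0461 CPM (3 counts, counting error only). Wnt8a patterns the early embryo and wnt3a the tail bud. Of the 10 nearest protein-coding genes, 0 were at 3 counts or fewer around wnt3a, 3 and 4 around the wnt8a rows, 3 around fzd7a and 5 around fzd9b. Around members with more counts this number ran from 0, as at fzd1 (1770 counts in all), to 5 at fzd10 (945). It was 3 at fzd3b (693) and at fzd5 (243), so the number alone does not set fzd7a or fzd9b apart.

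Where a gene is present as a pair of copies from the teleost genome duplication, 1 copy usually carried most of the level. Fzd8a exceeded fzd8b 25.1-fold per length, wnt6b exceeded wnt6a 15.1-fold and wnt7aa exceeded wnt7ab 10.2-fold, each in all 8 libraries. Wnt7ba exceeded wnt7bb 2.97-fold and wnt2ba exceeded wnt2bb 2.07-fold, again in all 8. Fzd3b and fzd3a were within 1.15-fold and each was the higher in 4 libraries. Fzd3b made up 57.8% of its pair in the controls and 48.6% in the LOF-labelled libraries, with a range of 41.7% to 62.8% over all libraries. Reads shared between copies may have been dropped or split, and no value shows which, so these ratios are uncertain. Among other relatives, wnt11 exceeded wnt11f2 225-fold, wnt4 exceeded wnt4b 177-fold and wnt5b exceeded wnt5a 129-fold in all 8 libraries. Whether wnt4 and wnt4b come from the teleost genome duplication was not examined.

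Some Wnt genes lie beside each other in the genome, and neighbours differed in level. On chromosome 2 wnt3a (3106237 to 3158919, reverse strand) and wnt9a (3201345 to 3271007, forward strand) are 42425 bases apart, with 2 and 430.0 counts in all. On chromosome 23 wnt10b (27641471 to 27647769, reverse strand) and wnt1 (27652906 to 27658054, forward strand) are 5136 bases apart, and wnt10b was the higher in all 8 libraries (6.75 to 16.5 against 3.40 to 7.54 TPM). On chromosome 9 wnt6b (11281969 to 11341315) and wnt10a (11379782 to 11409691), both on the forward strand and 38466 bases apart, were at 1.73 to 4.04 and 8.44 to 16.0 TPM, with wnt10a the higher in all 8.

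The comparison of the groups asks whether the hpse2 morpholino changed these genes. None of the 26 members with enough counts to be tested rose or fell in the edgeR quasi-likelihood test, in which 14 of 15559 genes, or 0.09%, were called at an adjusted p under 0.05. The smallest adjusted p among the members was 0.673. At an unadjusted p under 0.05 there were 2 members, wnt9a and wnt10b, where 6.29% of all genes passed. DESeq2 called 0 members, where it called 96 of 15559 genes. It also had 2 members at an unadjusted p under 0.05, where 982 of the 15559 genes passed. A test that misses the threshold does not show that the levels were equal, and the standard errors (SE) give the uncertainty of each difference. They include the spread between the library sets, since the fit held no block for them, and so does the SD of a group. With such a block the SE was 0.0699 rather than 0.168 for fzd2 and 0.0785 rather than 0.293 for fzd8a. It was 0.147 rather than 0.221 for fzd10 and 0.304 rather than 0.319 for fzd5. With this block 0 members were called, where 396 of 15559 genes were. The sets were chosen from these same counts, so a smaller SE with this block follows in part from that choice.

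Wnt9a, a ligand of blood stem cell emergence in zebrafish, had 5.01, 5.03, 5.62 and 5.58 CPM in the controls against 9.96, 7.98, 6.34 and 6.71 CPM under the LOF label. The groups did not overlap, and biological replicate 1 under the LOF label had the larger values. Its log2 fold change, LOF-labelled minus control, was 0.54 (SE 0.20, edgeR adjusted p = 0.673), with a difference of 0.36 within the first set and 0.65 within the second. Wnt10b had 5.25, 6.29, 3.87 and 5.67 CPM in the controls against 8.95, 8.29, 4.76 and 10.2 CPM under the LOF label, so LOF-labelled 2_1 overlapped the controls. Its log2 fold change was 0.62 (SE 0.26, edgeR adjusted p = 0.76).

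Wnt5b and wnt10a also had groups that did not overlap in CPM. This makes 3 such members, all ligands, of 26 tested, against 4.65% of all tested genes on the same scale. For wnt5b the margin was narrow, with 169 to 198.2 CPM in the controls against 198.3 to 217 CPM under the LOF label (log2 fold change 0.12, SE 0.088, edgeR adjusted p = 0.89). For wnt10a it was 6.5 to 8.76 CPM against 8.86 to 11.4 CPM (0.25, SE 0.17, edgeR adjusted p = 0.88). No receptor had groups without overlap in CPM. In TPM the groups of wnt5b and of wnt10a overlapped, whereas those of wnt9a and of the receptor fzd1 did not. Fzd1 was at 31.8 to 40.9 TPM in the controls against 41.6 to 47.99 TPM under the LOF label. The share of all genes without overlap was not computed in TPM.

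Wnt11 was at 578 ± 69.0 CPM in the controls against 672 ± 121 CPM under the LOF label (mean ± SD, n = 4), and its log2 fold change was 0.22 (SE 0.14). Fzd2 was at 576 ± 106 and 636 ± 126 CPM (0.14, SE 0.17) and fzd7b at 592 ± 49.7 and 632 ± 94.7 CPM (0.094, SE 0.12). For fzd4 the values were 170 ± 31.7 and 190.5 ± 15.2 CPM (0.16, SE 0.13), and for fzd6 79.3 ± 12.4 and 88.9 ± 10.5 CPM (0.16, SE 0.13). In each of these 5 genes the difference was smaller than the SD of at least 1 group, and their adjusted p lay between 0.877 and 0.953 in the edgeR test.

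Among the other receptors the log2 fold changes were 0.46 (SE 0.22) for fzd10, 0.22 (SE 0.12) for fzd1, 0.19 (SE 0.15) for fzd3a, 0.014 (SE 0.29) for fzd8a, -0.25 (SE 0.32) for fzd5, -0.32 (SE 0.21) for fzd3b and -0.58 (SE 0.50) for fzd8b. The sign for fzd8a was negative in some of the other fits. Within the first and second library sets the log2 differences were -1.99 and 0.23 for fzd8b, and -0.89 and 0.30 for fzd5. Fzd10 was at 9.01 to 13.6 CPM in the controls against 11.8 to 23.0 CPM under the LOF label, with its 2 highest values in LOF-labelled 1_1 and 1_2. Among the other ligands the values ran from -0.45 (SE 0.29) for wnt7aa to 0.45 (SE 0.29) for wnt6b. Wnt7aa was at 5.12 to 5.96 CPM in the controls against 2.52, 3.11, 6.34 and 3.89 CPM under the LOF label, where 2_1 stood above every control and the other 3 below.

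Of the 26 tested members 18 had a log2 fold change above 0 and 8 below, with a median of 0.15, where 50.3% of all tested genes lay above 0 and the median was 0.0017. For the 10 expressed receptors the median was 0.15 and for the 13 expressed ligands 0.22. Without LOF-labelled 1_2 the median of the members was 0.035, without control 1_2 0.055 and without LOF-labelled 2_2 0.229. Among the marker lists, 15 of 16 tested fibroblast genes (median 0.12), 9 of 11 mural cell genes (0.16) and 7 of 8 erythrocyte genes (0.39) also lay above 0. Of the endothelial genes 10 of 24 lay above 0 (-0.044), and of the epidermal genes 3 of 6 (0.048). Below 0 were the medians of neutrophil and macrophage genes (5 of 10 above 0, -0.082), skeletal muscle genes (5 of 11, -0.19), neuronal genes (0 of 10, -0.32), cartilage genes (1 of 17, -0.625) and photoreceptor genes (0 of 12, -1.55). The summed photoreceptor level overlapped between the groups, at 93.75 to 848 CPM in the controls against 128 to 256 CPM under the LOF label. The part of these cell types in the shift of the members was not tested. These counts are a description, since genes that vary together across libraries are not independent of each other.

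**Figure D4:**
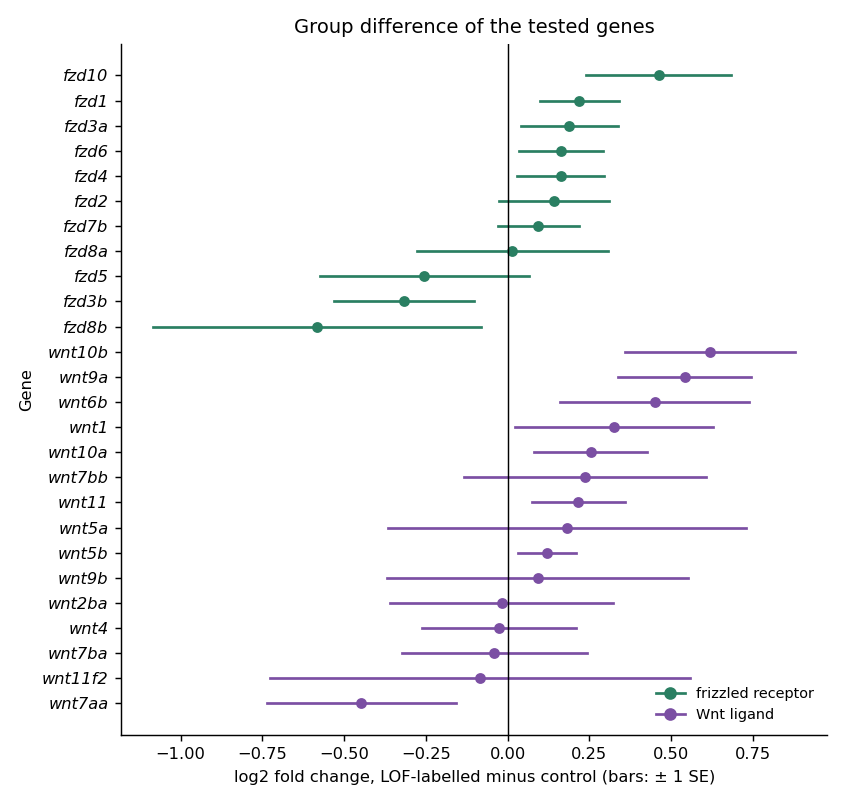
Log2 fold change (LOF-labelled minus control) of the 11 receptors and 15 ligands tested, with bars of 1 SE. Most points lie right of 0, between -0.58 for fzd8b and 0.62 for wnt10b, and none passed the test over all genes.

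Other members differed between the library sets while their groups overlapped. Wnt9b, a ligand of epithelia and of the developing face in mammals, had 31.5, 26.8, 36.1 and 44.3 CPM in the first set and 85.6, 88.2, 86.4 and 82.2 CPM in the second (control libraries first). It was 2.47-fold higher in the second set, while the log2 difference between the groups was 0.46 within the first set and -0.044 within the second. Fzd8a had 85.9, 73.5, 70.4 and 73.5 CPM in the first set and 136, 128, 139 and 146 CPM in the second, which is 1.81-fold higher. Wnt4 had 27.5 to 37.3 CPM in the first set and 49.8 to 51.4 CPM in the second (1.59-fold), fzd2 440.4 to 543 CPM and 652 to 757 CPM (1.38-fold), and fzd7b 522 to 592 CPM and 625 to 721 CPM (1.21-fold).

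These 5 genes were the tested members whose sets did not overlap in CPM. They are 5 of 26 (19.2%), against 27.2% of all tested genes on the same scale. In TPM the sets of wnt11, wnt5b, fzd4, fzd6, fzd10 and wnt2ba did not overlap either. The share of all genes was not computed in TPM, so the comparison with all genes holds for CPM only. A log2 difference of at least 1 between sets, which wnt9b passed as the 1 member, was found in 4.02% of tested genes. Fzd9a, too low to be tested, also had sets that did not overlap, at 0.537 to 0.954 and 1.03 to 2.52 CPM. The sets were drawn from the same libraries, so no test is given. In the first set the summed endothelial markers were at 974 to 1011 CPM and in the second at 1250.0 to 1364 CPM. The 11 mural cell markers (pericytes and smooth muscle) were at 1080 to 1313 and 1557 to 1742 CPM, and the 11 erythrocyte genes at 1192 to 1786 and 473.5 to 526 CPM, although hbba1, hbba2 and alas2 were listed at 0. Photoreceptor genes were at 253 to 848 and 93.75 to 135 CPM, and neutrophil and macrophage genes at 852 to 1229 and 591 to 847 CPM. Epidermal genes were at 272 to 285 and 286 to 308.5 CPM, although krt5, cldni and epcam were listed at 0. The sums of cartilage, fibroblast, skeletal muscle and neuronal genes overlapped between the sets. The part of these cell types in the Wnt and frizzled values was not tested.

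**Figure D5:**
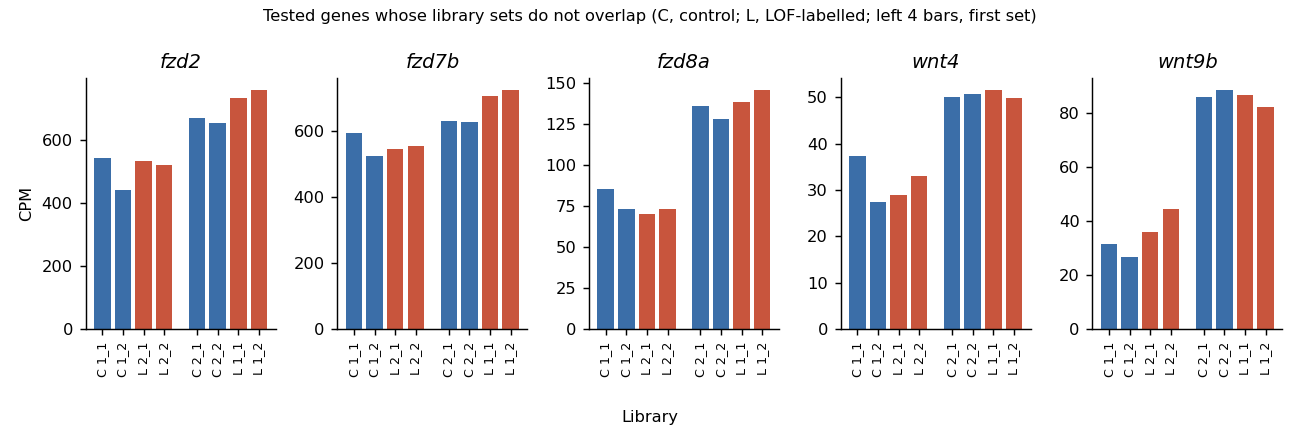
CPM in each library for the 5 tested genes whose library sets do not overlap in CPM. Bars show control (C, blue) and LOF-labelled (L, red) libraries, the first set on the left of each panel. In wnt9b the first set reaches 26.8 to 44.3 CPM and the second 82.2 to 88.2 CPM, with both groups in each.

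Other genes of the pathway were measured from 8 lists with 96 distinct genes, of which 91 matched the table and 80 had enough counts to be tested. In the edgeR test over all genes 0 of these 80 rose and 0 fell. At an unadjusted p under 0.05 there were 6, where 6.29% of all tested genes passed. Above 0 lay 58, where 50.3% of all tested genes did, and the median log2 fold change was 0.077. The members' median was 0.15 and that of all tested genes 0.0017.

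For Wnt export the carrier wls was at 398.5 ± 54.0 CPM in the controls against 423 ± 92.5 CPM under the LOF label (mean ± SD, n = 4). Notum1a, a secreted enzyme that strips the lipid from Wnt proteins, was at 53.9 ± 4.85 and 67.9 ± 6.56 CPM, a log2 fold change of 0.33 (SE 0.10, edgeR adjusted p = 0.543), and notum1b was at 0.13. Notum1a is also a feedback target of the pathway, beside apcdd1l at 0.37 (SE 0.15). All 11 tested genes of that list lay above 0, with a median of 0.199 and 0 calls. Of 8 tested co-receptor genes 7 lay above 0 (median 0.13), with lrp5 at 172 ± 16.5 and 202 ± 11.9 CPM (0.23, SE 0.096) and ror1, a receptor for Wnt5 proteins, at 124 ± 16.2 and 145 ± 15.0 CPM (0.22, SE 0.12).

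Secreted antagonists had a median of 0.16 over 11 tested genes. Dkk2, which binds LRP co-receptors, was at 34.2 ± 3.69 and 46.3 ± 8.73 CPM (0.44, SE 0.15, edgeR adjusted p = 0.588). Frzb, a secreted frizzled-related protein of cartilage, was at 156 ± 9.33 and 127 ± 16.3 CPM (-0.29, SE 0.11, edgeR adjusted p = 0.663), and was the 1 tested antagonist below 0. Of the 18 cartilage markers 17 were tested and 16 lay below 0, also in every other setting run. In the edgeR test 3 of the 17 fell (matn1, acana and sox10), and the number that fell depended on the setting. It was 12 with a block for library sets, 9 with DESeq2, 6 with limma-voom, 6 without a low-count filter and 5 with a block for the biological replicate number. It was 0 with the library number as a block and when counts were summed per biological replicate. It was also 0 when control 1_1 or either LOF-labelled library of biological replicate 2 was left out. There was 1 without control 1_2, 2_1 or 2_2 or LOF-labelled 1_1, and there were 5 without LOF-labelled 1_2. The part of cartilage cells in the frzb value was not tested. In the R-spondin and receptor turnover list (6 tested, median 0.10) znrf3, a ubiquitin ligase that removes frizzleds from the membrane, had 0.33 (SE 0.14) and the R-spondin gene rspo3 0.11 (SE 0.12).

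Inside the cell, 18 cytoplasmic transducers had a median of 0.040, with the scaffold genes axin1 at 0.15 (SE 0.088) and axin2 at 0.199 (SE 0.13). The 11 tested nuclear partners had a median of 0.11, with lef1 at 0.16 (SE 0.088) and bcl9 at 0.16 (SE 0.089). Of the 18 tested planar polarity genes 8 lay above 0 and 10 below, with a median of -0.014. Among them were the small GTPase genes rhoab at -0.16 (SE 0.089) and rhoaa at -0.12 (SE 0.089). In each of these lists 0 genes were called by edgeR.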

How the data were processed

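The authors deposited raw read counts per gene for 8 libraries in 1 table of 32520 genes, with identifiers, names, coordinates and the gene length used here for TPM. Processing notes by the submitters name the build GRCz11. Which aligner and counter were used, and whether strand was considered, is not given in the sources used here. Columns were assigned through the sample descriptions, and 0 sample columns were left without a sample. The deposited gene length, a value in bases classed as other, is the authors' own.

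Genes were filtered with filterByExpr, which left 15559, scaled by TMM and tested in edgeR (version 4.0.16, under R 4.3.3) by its robust quasi-likelihood F test, with no replicate block and Benjamini-Hochberg adjustment over all genes tested. CPM are counts per 1000000 of the TMM-scaled library. Log2 differences within library sets carry a prior count of 2. The SE is the fold change divided by the square root of F. The test was checked on simulated counts. There it recovered 11.8% of 1.5-fold, 66.7% of 2-fold and 93.3% of 4-fold changes, with 8 false calls. The simulated libraries were independent draws without biological replicate pairs or library sets. These rates therefore hold for independent libraries and may differ for the real ones. Alternatives used DESeq2 1.42.0, limma 3.58.1, other scaling and filters, 3 replicate blocks, sums per biological replicate and the omission of each library.

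Members are the rows matching the name rule. All expressed members, all with an unadjusted p under 0.05 and, per pathway list, called genes or the 2 of smallest p are named, as are the 2 most abundant genes of each marker list; adgra2, reck, wls, the called cartilage genes and the neighbours in the genome were chosen after their values were seen. Members and lists were chosen with earlier results of these data known. Of 250 list entries 242 were found by name, 1 by an older symbol and 7 were not found.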

Additional observations from a re-analysis of the deposited data

Results flagged for a closer look

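In 46 groups of 4 libraries (23 expressed genes, control and LOF-labelled) 3 single libraries stood far from the other 3 of their group, where chance gives about 1 in 20. Wnt10a was at 11.4 CPM in LOF-labelled 2_1 against 8.86 to 9.12 CPM in the other LOF-labelled libraries. Wnt7aa was at 5.96 CPM in control 1_1 against 5.12 to 5.24 CPM in the other controls. Wnt7bb was at 3.35 CPM in control 1_2, the library with the fewest counts, against 1.67 to 1.87 CPM in the other controls.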

How the results depend on the processing

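No member was called under any of the 19 other settings, and the smallest adjusted p of a member was 0.114, reached with a block for library sets. The log2 fold changes of 18 members kept their sign in every setting run, and those of 8 did not. Fzd8a (0.014) was at -0.028 with limma-voom, -0.020 with the library number as a replicate block, -0.022 with the biological replicate number as a block, -0.016 with the library sets as a block and -0.035 with a random effect, and -0.172 to 0.178 when 1 library was left out. Wnt11f2 (-0.086) was at 0.043 with limma-voom, 0.085 with a random effect and -0.386 to 0.587 with 1 library left out. With 1 library left out wnt2ba ranged from -0.311 to 0.168, wnt4 from -0.172 to 0.114, wnt5a from -0.11 to 0.457, wnt7ba from -0.145 to 0.0791, wnt7bb from -0.0761 to 0.474 and wnt9b from -0.136 to 0.363. The cause was not tested.

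Over all genes 14 were called, against 32 without a low-count filter, 8 with at least 30 counts in 4 libraries, 96 with DESeq2, 5 with a random effect, 0 with counts summed per biological replicate and 0 to 20 with 1 library left out. As a replicate block the library number gave 0 calls, the biological replicate number 17 and the library sets, a crossed pairing chosen from these same counts, 396. Same-numbered libraries did not deviate together (correlations of -0.338 to -0.23). Control and LOF-labelled libraries of the same library set had correlations of 0.235 to 0.37, so these values follow the sets. They cannot show whether same-numbered libraries were handled together. With 5 CPM as the limit 15 genes were expressed, with 0.5 CPM 26 and with at least 10 counts 21. The limit of 1 CPM rests on 4.77 to 11.6 counts, so expression near it is set by depth.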
